A study of Mus musculus with 7 samples.

Results

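The keratins by which basal and luminal cells of the mouse mammary gland are told apart were examined in array profiles of sorted mammary cells. The 10 genes were chosen by symbol: Krt5, Krt14, Krt15 and Krt17 as keratins of basal cells, Krt8, Krt18, Krt19 and Krt7 as keratins of luminal cells, and Krt6a and Krt4 as further epithelial keratins. Of the 10, 9 were measured, by 14 of the 45033 probe sets used; the platform annotation listed no probe set for Krt17, which was not analysed here. Where a gene had several probe sets, the one with the highest mean stood for it, among 17096 genes tested. For the adult arrays every other probe set is given beside it.

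The series held 7 Affymetrix arrays of 3 kinds of cells. The adult luminal cells (2 arrays) were YFP+ cells of K8CREERT2/RosaYFP mice, in which tamoxifen activates a Cre recombinase driven by a keratin 8 promoter. The adult basal cells (2 arrays) were YFP+ cells of K5CREERT2/RosaYFP mice, where a keratin 5 promoter drives the Cre; both kinds were taken 8 weeks after tamoxifen and are marked in the labels as reanalysed. The embryonic cells (3 arrays) were CD49fHi Lgr5Hi cells of female Lgr5-IRES-GFP embryos at embryonic day 14, sorted from digested epidermis and mammary gland, with 2000, 2000 and 813 cells, each array being a pool of the females of a litter. The tissue and protocol fields of the adult arrays repeat the embryonic text, so how the adult cells were prepared is not given in the sources used here, and the labels do not state if adult replicates are different animals; p-values then measure only the spread between arrays, which may be technical.

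Keratins form the intermediate filaments of epithelial cells. Each filament is built of pairs of a type I and a type II protein, so the genes are commonly expressed in pairs: Krt5 (type II) with Krt14 (type I) in basal and myoepithelial cells, and Krt8 (type II) with Krt18 (type I) in simple and luminal epithelium. In the embryonic mammary bud cells can hold keratins of both layers, whereas in the adult gland they largely separate, which is why Krt5 and Krt8 promoters are used to label the lineages. The type I genes measured here lie on chromosome 11 and the type II genes on chromosome 15, except that Krt18, a type I gene, lies beside its partner Krt8 on chromosome 15.

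Values are log2 of the deposited probe set intensity. The background level was 5.91 on that scale, the 95th percentile of the mean values of 122 probe sets that belong to 97 genes of other organs (such as liver, retina or testis), and 7919 genes had a mean above it, all 9 keratins among them. The median log2 intensity of the arrays ran from 5.05 to 5.08. Of 6 basal markers 5 changed, all higher in basal cells, and of 6 luminal markers 5 changed, all higher in luminal cells. The 6 basal markers summed to 735 and 1251 in luminal arrays, against 5970 and 6850 in basal arrays, and the 6 luminal markers to 4628 and 4268 in luminal arrays, against 2347 and 2430 in basal arrays. Of the basal list, the smooth-muscle gene Cnn1 (5.24 and 5.81) and the oxytocin receptor gene Oxtr (5.62 and 5.36) lay below background in luminal arrays, while Acta2, Myh11, Trp63 and Cdh3 lay above it. Of the luminal list, Foxa1 (4.31 and 4.76), a transcription factor of hormone receptor positive luminal cells, and Elf5 (4.92 and 5.05), one of alveolar progenitors, lay below background in basal arrays, while the hormone receptor genes Esr1 (8.37 and 8.86) and Pgr (6.15 and 6.63) and the epithelial genes Cldn3 (8.16 and 8.53) and Epcam (10.65 and 10.49) lay above it. The summed intensity of 5 endothelial markers was 203 and 446 in luminal arrays, against 647 and 1076 in basal arrays, that of 7 fibroblast markers 2313 and 3818, against 4486 and 5687, and that of 5 leukocyte markers 158 and 318, against 320 and 426. None of these 17 genes changed in limma (4 endothelial, 2 fibroblast and 0 leukocyte genes had an unadjusted p under 0.05). The collagen genes Col1a1 (8.58 and 10.41 in luminal arrays, against 10.81 and 10.93 in basal arrays) and Col3a1 (8.51 and 10.43, against 10.56 and 11.08) were above background in all 4 adult arrays, as were Dcn, Pdgfrb, Pecam1 and Cd74. Tek, Col1a2, Pdgfra, Ptprc, Cd52 and Laptm5 had means below background in both kinds of cells, and Kdr, Emcn and Lyz2 in luminal cells. The part of such cells in the keratin differences was not tested. In sorted bulk samples fewer cells of a type and less RNA per cell cannot be told apart.

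Of the 9 keratins, 5 were called changed between adult luminal and basal cells. Krt5 and Krt14 were 6.72-fold and 5.82-fold higher in basal cells, and Krt19, Krt7 and Krt6a were 2.26-fold, 3.12-fold and 2.33-fold higher in luminal cells. Krt8 and Krt18, the pair most used as luminal keratins, differed by 1.32-fold and 1.60-fold and did not reach the 2-fold minimum. Krt18, like Krt15 (1.71-fold higher in basal cells), missed only that minimum, whereas Krt8 also missed the adjusted p. Krt4 missed the adjusted p. A gene is called changed at a limma Benjamini-Hochberg adjusted p under 0.05 and a difference of at least 2-fold; 5.49% of all genes tested were changed (2.87% higher in luminal, 2.63% higher in basal). Luminal and basal values were without overlap in all 9 keratins, as in 59.2% of all genes tested.

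The start-site regions of the driver genes Krt5 and Krt8, of Krt18 as the partner of Krt8 and of Krt7 as the luminal keratin with the largest difference are shown to let these loci be compared. They are the 250 bases before the annotated start in RefSeq on GRCm38.p6: Krt5 at chr15:101712906-101713155 on the minus strand, Krt8 at chr15:102004343-102004592 on the minus strand, Krt18 at chr15:102027966-102028215 on the plus strand and Krt7 at chr15:101412153-101412402 on the plus strand. Of the 10 genes 5 had an entry; that of Krt14 lay inside the gene and is not printed. Capitals mark the motifs searched on both strands, namely the TATA box TATAAA, the like motif ATAAAA that can overlap it, the GC box GGGCGG, the AP-1 motif TGANTCA, the GATA motif GATAAG and the ETS motif AGGAAG.
Krt5: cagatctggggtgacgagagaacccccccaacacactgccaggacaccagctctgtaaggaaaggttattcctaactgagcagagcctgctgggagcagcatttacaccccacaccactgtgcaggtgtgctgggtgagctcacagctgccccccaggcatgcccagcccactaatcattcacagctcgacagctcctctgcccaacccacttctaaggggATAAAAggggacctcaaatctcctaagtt
Krt8: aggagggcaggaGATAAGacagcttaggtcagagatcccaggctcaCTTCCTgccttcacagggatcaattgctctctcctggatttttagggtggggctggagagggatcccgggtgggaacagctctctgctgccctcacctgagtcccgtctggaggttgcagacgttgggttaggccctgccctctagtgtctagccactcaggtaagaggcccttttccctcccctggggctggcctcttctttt
Krt18: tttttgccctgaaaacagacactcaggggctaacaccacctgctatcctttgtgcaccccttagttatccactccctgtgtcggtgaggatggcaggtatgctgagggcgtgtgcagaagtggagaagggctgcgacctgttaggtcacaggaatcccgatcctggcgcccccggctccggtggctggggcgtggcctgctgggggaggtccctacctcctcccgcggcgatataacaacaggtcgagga
Krt7: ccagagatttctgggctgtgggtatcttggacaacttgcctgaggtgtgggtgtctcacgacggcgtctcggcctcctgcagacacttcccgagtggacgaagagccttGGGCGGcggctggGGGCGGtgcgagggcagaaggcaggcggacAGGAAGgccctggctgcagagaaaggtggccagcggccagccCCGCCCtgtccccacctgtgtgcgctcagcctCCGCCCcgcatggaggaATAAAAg
The A-rich motif ATAAAA lay 29 to 24 bases before the start in Krt5 and 7 to 2 bases before it in Krt7, and occurs in 17% of all 32851 such windows. The GC box GGGCGG occurred 4 times in Krt7 and in 32.7% of windows. Krt7 and Krt8 each held AGGAAG (29.5% of windows), and Krt8 held GATAAG (6.55%). TATAAA (12.4%) and TGANTCA (6.75%) had no match in these 4 windows. Matches describe the letters only. The GC content of the windows was 56.0% in Krt5, 58.0% in Krt8, 60.4% in Krt18 and 66.0% in Krt7.

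Krt5 encodes the type II keratin of basal cells, and its promoter drove the label of the basal cells, so its direction is tied to how the cells were labelled. Its log2 intensity was 9.13 and 9.56 in luminal arrays, against 12.03 and 12.15 in basal arrays. Both luminal arrays lay far below both basal arrays. The log2 difference (luminal minus basal, here and below) between 2 luminal and 2 basal arrays was -2.75 (limma adjusted p = 0.0106). Its SE of 0.32 draws on the spread within all 3 groups, the embryonic arrays included. With the adult arrays alone the SE was 0.18. Later differences carry an SE from all 7 arrays after the ± sign. The gap between the lineages was 6.38 times the larger gap between replicates, which was that of the luminal arrays. Luminal replicate 2, the higher for Krt5, was also higher than replicate 1 for the smooth-muscle genes Acta2 (9.29 and 7.97) and Myh11 (7.99 and 6.61). It was not higher for Krt14 or for Trp63, the basal transcription factor p63 (7.30 and 7.67). Its summed fibroblast (3818 and 2313), endothelial (446 and 203) and leukocyte markers (318 and 158) were higher too, although Dcn was lower (9.67 and 10.43). The part of such cells in the Krt5 values was not tested.

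Krt14 encodes the type I partner of keratin 5 and drove no label here. It stood at 9.54 and 9.42 in luminal arrays, against 12.07 and 11.97 in basal arrays. The difference of -2.54 ± 0.36 (limma adjusted p = 0.0151) was 20.2 times the larger replicate gap. The probe set used carries the suffix that the maker gives to sets some of whose probes match other transcripts. The second Krt14 probe set, without that suffix, read 8.40 and 8.48 in luminal arrays, against 11.43 and 11.29 in basal arrays, and differed by -2.92 ± 0.43. Among all single-gene probe sets 4.47% were changed.

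Krt15 encodes a type I keratin of basal cells of stratified epithelia. Its levels were 6.66 and 6.63 in luminal arrays and 7.48 and 7.35 in basal arrays. It thus lay on the basal side with no overlap, by -0.77 ± 0.11 (limma adjusted p = 0.0155; 95% interval -1.04 to -0.50), and missed the 2-fold minimum.

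**Figure D1:**
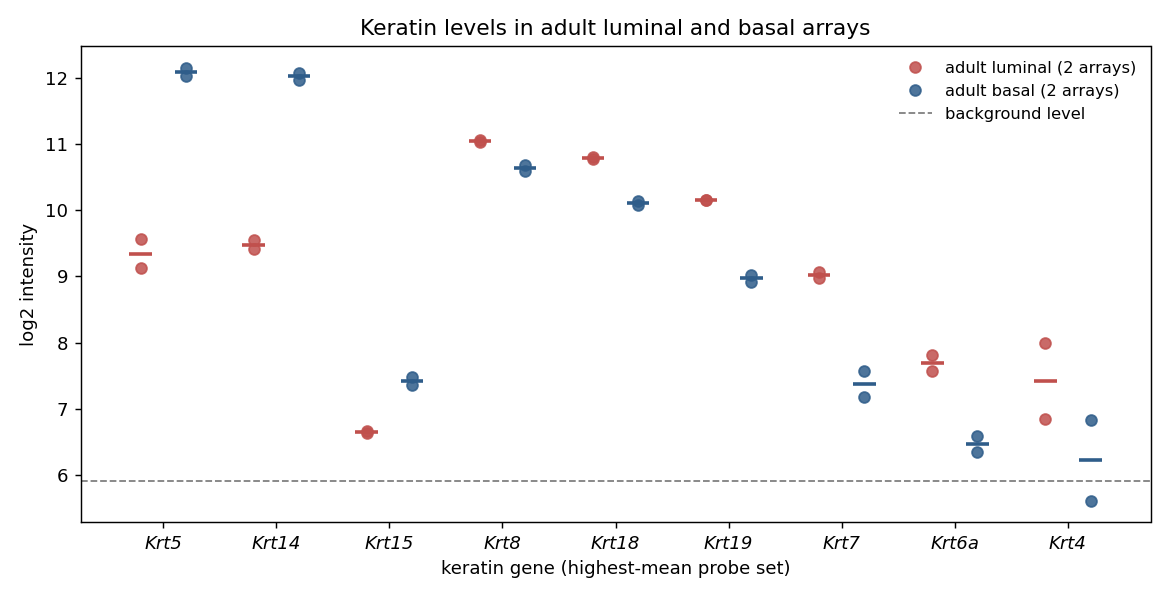
Log2 intensity of the 9 measured keratins in the adult arrays: points are arrays (luminal left, basal right of each gene), bars are means of 2 and the dashed line is the background level. Krt5 and Krt14 separate by more than 2.5 units, Krt8 by 0.40, and the Krt4 replicates lie as far apart as the lineages; heights are not comparable between genes.

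Krt8, whose promoter drove the luminal label, encodes the type II keratin of simple epithelium. It had 11.05 and 11.03 in luminal arrays, against 10.69 and 10.59 in basal arrays. The luminal arrays were higher without overlap, and the difference of 0.40 ± 0.15 had a 95% interval of 0.05 to 0.76 and did not pass (limma adjusted p = 0.121). A second probe set gave 11.12 and 11.02 in luminal arrays and 10.56 and 10.54 in basal arrays, a difference of 0.52 ± 0.13. Mean Krt8 intensity was 2111 in luminal arrays and 1597 in basal arrays. Of the 6 other luminal markers, 4 lay above and 2 below background in these basal arrays, as given above, and the part of luminal cells in the basal Krt8 level was not tested.

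Krt18, the type I partner of Krt8 and its neighbour on chromosome 15, read 10.77 and 10.81 in luminal arrays, against 10.14 and 10.07 in basal arrays. The difference of 0.68 ± 0.14 (limma adjusted p = 0.0328; 95% interval 0.34 to 1.02) was 10.6 times the larger replicate gap but below 2-fold. Both members of the pair had luminal values above the basal ones and neither was called changed; a difference of 2-fold lay outside the interval for Krt8 and inside it for Krt18.

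Krt19 encodes a short type I keratin of ductal epithelia that lacks the usual tail. Its levels were 10.15 and 10.15 in luminal arrays, against 8.92 and 9.03 in basal arrays. The luminal replicates were nearly equal, and the difference was 1.18 ± 0.20 (limma adjusted p = 0.0219). Krt19 lies next to Krt15 on chromosome 11, and these neighbours differed in opposite directions between the lineages.

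Krt7 encodes a type II keratin of glandular and ductal epithelium. It had 8.97 and 9.06 in luminal arrays, against 7.18 and 7.58 in basal arrays. Among the 9 keratins it had the largest difference on the luminal side, 1.64 ± 0.29 (limma adjusted p = 0.0237), although the basal replicates lay 0.40 apart.

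Krt6a encodes a type II keratin of hair follicles and wounded epidermis that is also found in mammary ducts. Its level was 7.81 and 7.57 in luminal arrays, against 6.59 and 6.35 in basal arrays. The difference was 1.22 ± 0.23 (limma adjusted p = 0.0273). The other Krt6a probe sets moved the same way, by 1.49 ± 0.17 and 1.05 ± 0.12. Krt6a lies between Krt5 and Krt6b on chromosome 15, so here too neighbours, Krt5 and Krt6a, differed in opposite directions. The probe set of Krt6b, its near copy, lay below background in both lineages (3.15 and 3.13), but the signal of these paralogs cannot be told apart where a probe matches both. Of 7 differentiated epidermis markers Sbsn, a gene of the upper epidermis, changed (1.06 ± 0.21). That call ended without any 1 adult array and under 3 other alternatives. Krt1, Ivl, Lor, Flg and Krtdap lay below background in both lineages. The list summed to 597 and 535 in luminal arrays, against 336 and 399 in basal arrays. Of these sums Sbsn alone gave 381 and 316, against 149 and 185. The part of the list in the Krt6a difference was not tested.

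Krt4 encodes a type II keratin of the upper layers of internal stratified epithelia such as the oesophagus. It read 6.84 and 7.99 in luminal arrays, against 5.61 and 6.83 in basal arrays. Replicate 2 was the higher in both lineages, by 1.15 in luminal and 1.22 in basal cells, about as much as the lineages differed (1.19 ± 0.84, 95% interval -0.84 to 3.22, limma adjusted p = 0.387). Basal replicate 1 lay below background. The second probe set read 5.49 and 6.84 in luminal arrays, against 4.95 and 5.21 in basal arrays, so that luminal replicate 2 alone was above background, and no size is read from it. Krt4 was thus not called, and its interval holds both no difference and one of more than 2-fold.

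**Figure D2:**
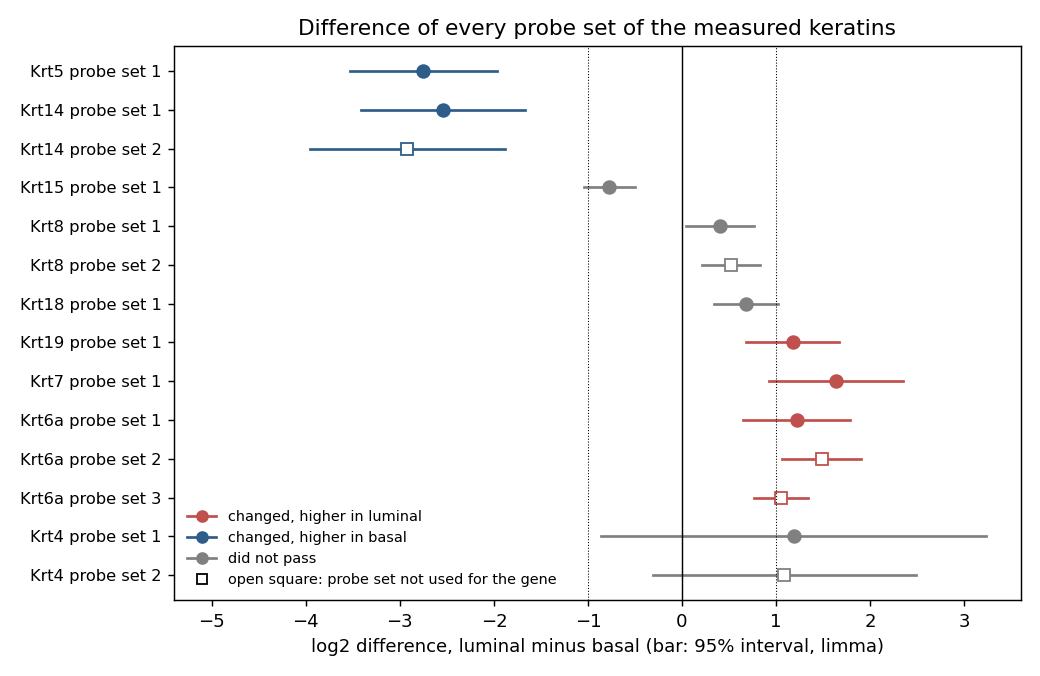
Log2 difference, luminal minus basal, of all 14 probe sets of the measured keratins, with 95% limma intervals; dotted lines mark 2-fold and open squares are probe sets not used for the gene. Probe sets of a gene lie on the same side, from -2.92 for a Krt14 set to 1.64 for Krt7, and those of Krt8, Krt18, Krt15 and Krt4 did not pass.

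These calls rest on all 4 adult arrays: without luminal replicate 1, luminal replicate 2, basal replicate 1 or basal replicate 2 none of the 5 keratins passed in limma, with adjusted p of 0.0530 to 0.0901 for Krt5 and up to 0.164 for Krt6a. In each of these 4 fits 7 of the 9 had an unadjusted p under 0.05. The differences were then -2.96 to -2.53 for Krt5, -2.60 to -2.48 for Krt14, 1.12 to 1.23 for Krt19, 1.44 to 1.84 for Krt7 and 1.10 to 1.34 for Krt6a. With arrays weighted by their quality, Krt5 (adjusted p = 0.0785) and Krt14 (adjusted p = 0.0504) did not pass, and with 32 added to the intensity Krt6a fell short of 2-fold (0.98).

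Of the other 32 keratins measured, 6 had a mean above background and 2 changed, both higher in basal cells, a share near the 5.49% of all genes tested. Krt23, a type I keratin, read 5.44 and 5.58 in luminal arrays, against 7.18 and 7.68 in basal arrays, a difference of -1.92 ± 0.29 (limma adjusted p = 0.0170); since the luminal arrays lay below background, its size is not exact. Krt42, a type I keratin gene beside Krt17, read 7.65 and 7.60 in luminal arrays, against 8.72 and 8.78 in basal arrays (-1.12 ± 0.11, limma adjusted p = 0.00774). The Krt42 probe set carries the same suffix as the Krt14 set used, given where some probes match other transcripts. Whether other keratins add to its signal was not tested. Krt16, a type I keratin of hair follicles and wounded skin, read 7.59 and 6.51 in luminal arrays, against 8.16 and 8.25 in basal arrays, and its -1.16 ± 0.41 did not pass (limma adjusted p = 0.111), the luminal replicates being 1.09 apart. Krt78 (0.36), Krt10 (0.13), a keratin of the upper epidermis, and Krt34 (0.01), a hair keratin, did not pass. Leaving out either luminal array ended the Krt23 and Krt42 calls, and leaving out either basal array ended that of Krt23. The median difference was -0.03 over the other keratins, 0.68 over the 9 measured and 0.02 over all genes tested.

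**Figure D3:**
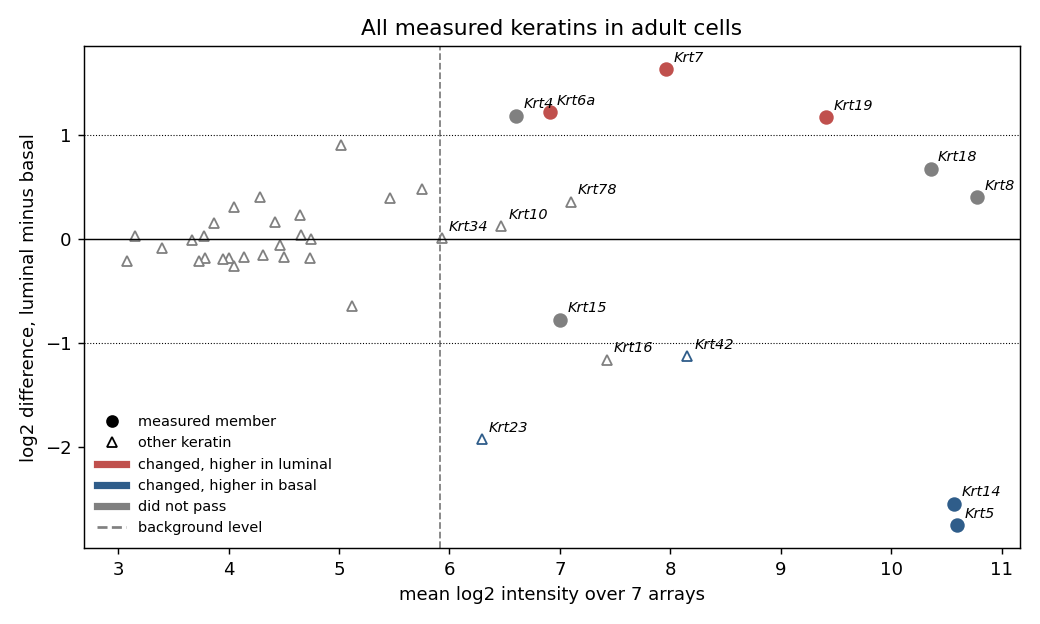
Log2 difference, luminal minus basal, of every measured keratin against its mean log2 intensity over 7 arrays; circles are the 9 measured members, triangles the other 32, and names are given to members and to genes above the background level (dashed). Most other keratins lie below background near 0, and Krt23 and Krt42 are the coloured triangles on the basal side.

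Genes whose products anchor, bind or regulate keratin filaments were described by a list of 23, of which 21 were measured. Of these, 2 were higher in luminal cells, as were 2.87% of all genes tested, and 4 in basal cells, as were 2.63%, with a median difference of 0.04 over the list. Col17a1, the transmembrane collagen of hemidesmosomes, was at 7.49 and 7.78 in luminal arrays, against 10.75 and 10.67 in basal arrays (-3.07 ± 0.44, limma adjusted p = 0.0159). Trp63, whose product p63 is a regulator of Krt5 and Krt14 in skin, and which is also among the basal markers, was at 7.67 and 7.30 in luminal arrays, against 10.09 and 10.41 in basal arrays (-2.77 ± 0.37). Pkp4, an armadillo protein of junctions (-1.21 ± 0.25), and Vim, the intermediate filament of mesenchymal and myoepithelial cells (-2.06 ± 0.51, limma adjusted p = 0.0478), were higher in basal cells. Vim read 8.17 and 9.27 in luminal arrays, against 10.76 and 10.82 in basal arrays. The desmosomal genes Pkp2 and Dsc2 (1.13 ± 0.22) were higher in luminal cells; the mean of Pkp2 lay below background in both lineages (5.86 in luminal and 4.19 in basal cells), so no size is given, and that of Dsc2 in basal cells (5.34), so its size is not exact. The plakin genes Plec (0.54), Dst (-0.69), Dsp (-0.32) and Evpl (0.96), which link filaments to junctions, did not pass. Plec, Dst and Evpl missed only the 2-fold minimum (limma adjusted p = 0.0498, 0.0172 and 0.0172). With the mean of all its probe sets Dst differed by -1.62 and was called. Dsp also missed the adjusted p (limma adjusted p = 0.113). Of the 6 calls, 0 were kept without luminal replicate 1 or without either basal array, and 1, that of Pkp2, was kept without luminal replicate 2. Vim was the least stable, its call ending under 11 of the 18 alternatives fitted.

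Genes with adult profiles most like a keratin were those with the smallest root mean square difference of centred log2 values over the 4 adult arrays, among 7744 named genes above background. For Krt5 they were Enc1 (0.08), Rnase4, a secreted ribonuclease (0.10), and Fmod, the fibromodulin gene (0.11). For Krt14 they were Moxd1 (0.04), Col7a1, the collagen of anchoring fibrils (0.10), and Ltbp2 (0.15). For Krt8 they were Atg3, Macroh2a1 and Ints11, each at 0.01, and for Krt19 Hpf1, Ddt and Pnisr (0.03 to 0.04). Krt14 ranked 36th by this measure for Krt5, at 0.24, and Krt18 ranked 1400th for Krt8, at 0.14. The measure is not scaled by the size of the lineage difference. A keratin with a small difference, such as Krt8, therefore has many genes close to it, and the ranks of the pairs are not comparable. The measure rests on 4 arrays and is a description.

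The levels of the embryonic arrays were set only against each other, although their spread entered the SE of the adult differences. Of all probe sets, 37.6% have the identical deposited value in embryonic replicates 1 and 2, and the embryonic mean lay between the luminal and basal means for 89.3% of genes, so for all 9 keratins too. That position therefore describes the table, and no embryonic level is read against an adult one. Identical values concerned few keratin probe sets, 2 of 14 between replicates 1 and 2, both of Krt6a, and 1 between replicates 1 and 3, that of Krt15.

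All measured keratins except Krt4 were above background in all 3 embryonic arrays. The median absolute gap between the embryonic mean and the mean of the adult arrays was 0.017 over all genes and 0.35 over the 9 keratins. Whether the embryonic levels in the table depend on the adult ones was not tested. Expression of both layers in the embryonic cells is therefore not read from these levels. Krt5 was at 10.19, 11.02 and 10.11 in replicates 1, 2 and 3 (mean 10.44 ± 0.50, SD, n = 3). Krt14 was at 10.37, 10.93 and 9.71 (10.34 ± 0.61). Replicate 2 was the highest for this basal pair, by 0.82 and 0.56 over replicate 1. Krt8 was at 10.45, 10.88 and 10.75 (10.69 ± 0.22) and Krt18 at 10.01, 10.41 and 10.30 (10.24 ± 0.21). The luminal pair varied less. Within each pair the members kept the same order, replicate 2 above 3 above 1 in the luminal pair and 2 above 1 above 3 in the basal pair. Krt19 was at 9.46, 9.35 and 8.84 (9.22 ± 0.33). Krt7 was at 7.86, 7.96 and 7.12 (7.65 ± 0.46). Both were lowest in replicate 3, the array of 813 cells, as was Krt6a (6.88, 6.88 and 6.27). Krt15 was at 6.90, 7.12 and 6.90, with the identical value in replicates 1 and 3, and 53.1% of genes had a larger range. Krt4 ranged most, at 7.28, 6.72 and 4.94, which is 5.05-fold from highest to lowest, and 0.0234% of genes had a larger range. It lay below background in replicate 3, so that size is not exact. The second Krt4 probe set read 6.01, 5.47 and 4.56, above background in replicate 1 alone.

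In all, replicate 3 was the lowest array without a tie for 6 of the 9 keratins, and for 38.4% of the 7919 genes above background. It was the highest for 0 of the keratins, but for 42.8% of those genes. Replicate 2 was the highest for 6 keratins, and for 16.7% of those genes. The median of replicate 3 minus replicate 2 was -0.61 over the 9 keratins and 0.00 over genes above background. The median range was 0.62 over the keratins and 0.34 over genes above background. The cell number of the sort moves with replicate 3, and its part in these values was not tested. These arrays have no contrast, so no test was made.

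**Figure D4:**
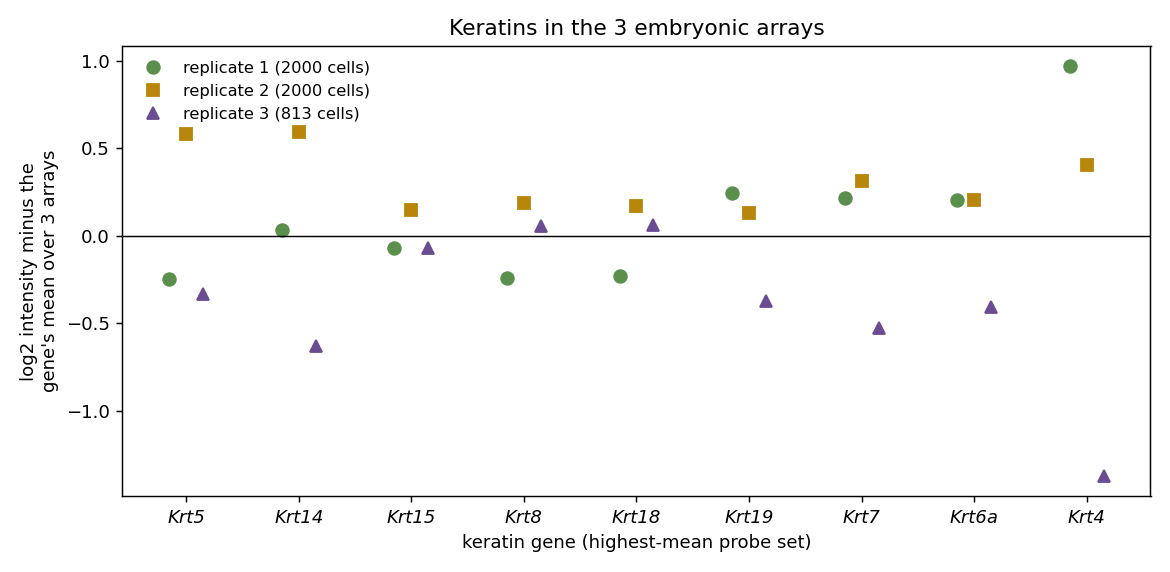
Log2 intensity of each measured keratin in the 3 embryonic arrays, minus that gene's mean over them; symbols are replicates 1 and 2 (2000 cells each) and replicate 3 (813 cells). Krt5 and Krt14 are highest in replicate 2, Krt8 and Krt18 vary by about 0.4 and Krt4 is lowest in replicate 3.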

How the data were processed

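Probe set intensities on a linear scale were deposited by the authors, 1 column per array; the submitters' processing notes name RMA and affy, and versions, settings and whether all arrays were summarised together are not given in the sources used here. RNA was amplified by whole transcriptome amplification, per the labels' protocols. Log2 was taken here, although RMA normally gives log2 already. Of 45141 rows, 4 had no values and 104 were controls, and neither were used; 28895 probe sets had 1 gene symbol, 551 several and 15587 none listed, and 28686 matched the gene table by Entrez identifier.

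Differences come from limma 3.58.1 (R 4.3.3) with a mean for each of 3 groups over all 7 arrays (residual degrees of freedom 4, prior 2.29), adjusting p over 17096 genes. The fit and the sign of its calls were tested on simulated data. The number of arrays limits the precision. The keratins, lists and tests were chosen with earlier results of these data known, and the genes that set the background level were listed after the values were seen. Named genes were all members; changed other keratins and list members, up to 6 per direction, with up to 4 that did not pass; and the 3 most alike genes for Krt5, Krt14, Krt8 and Krt19. Alternatives changed the arrays fitted, normalization, offset, probe set choice, dim genes, prior, weights, replicate block, fold minimum and each replicate. Plots used matplotlib 3.10.9 (Python 3.11.15).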

Additional observations from a re-analysis of the deposited data

How the results depend on the processing

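The directions of all 9 keratins held under every alternative fitted. The count of changed genes, 939, was 446 with 32 added to the intensity (178 higher in luminal, 268 in basal cells), 605 with array weights, 1839 with a 1.5-fold minimum and 2223 with none. The count of changed keratins, 5 of 9, was 3 with array weights, which dropped Krt5 and Krt14, and 7 without a fold minimum. Leaving out 1 array in turn gave 60 to 1178 changed genes and 0 to 5 changed keratins: 60 and 148 genes without luminal replicates 1 and 2, 180 and 377 without basal replicates 1 and 2. The fit then gives a lone array the spread of the remaining arrays. The difference of Krt4 was 1.76 and 0.62 without luminal replicates 1 and 2, and 0.58 and 1.80 without basal replicates 1 and 2. The same alternatives were added for the other keratins and the filament partner genes after seeing the data. Of the other keratins, 2 in the fit reported, 4 were called without a fold minimum and 0 to 2 with 1 array left out. Of the partner genes, 6 in the fit reported, 3 were called with 32 added (without Pkp2, Dsc2 and Vim), 3 with array weights (without Trp63, Pkp4 and Vim) and 0 to 6 with 1 array left out. Krt10 turned to -0.12 without basal replicate 1 (range -0.12 to 0.39 with 1 array left out). Krt34 turned to -0.061 with quantile normalization and lay between -0.17 and 0.20 with 1 array left out. Krt16 was called with quantile normalization (-1.25) and Dst with the mean of all probe sets of a gene (-1.62). Sbsn was not called with quantile normalization (0.98), with 32 added (0.94) or with the mean of all probe sets (0.84). The causes were not tested. Adult replicate numbers are shared by name only; across 7919 genes the replicate 2 minus 1 differences of the lineages correlated at 0.15. With a replicate block 1208 genes and 6 keratins were called, Krt4 being added (adjusted p = 0.0115). The background level was 4.59 from 82 receptor probe sets of smell and pheromone sensing. Of 35 lineage means of listed or named genes below 5.91, 20 lay above 4.59, those of Cnn1, Oxtr and Krt23 in luminal cells, Elf5 and Dsc2 in basal cells and Col1a2, Cd52, Laptm5, Ivl and Lor in both among them; so did Krt4 in embryonic replicate 3 and basal replicate 1. With 2 arrays a group, small differences such as that of Krt8 are at the limit of what can be shown. Differences of dim genes are also compressed near background. Krt8 was not such a gene, with means of 11.04 in luminal and 10.64 in basal cells.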

Other observations

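In the embryonic arrays Krt5 and Krt14 were highest in replicate 2 and lowest in replicate 3. Of 38 other keratins above background, filament partners and lineage markers, 3 had that order, Krt34, Plec and Cldn3, as did 12.2% of the 7919 genes above background. Plec was at 10.01, 10.17 and 9.92 and Cldn3 at 8.54, 8.98 and 8.36 in replicates 1, 2 and 3. Among genes with another order, Trp63 was at 7.90, 8.95 and 8.91 in replicates 1, 2 and 3, and Col17a1 at 8.02, 8.53 and 9.52, highest in replicate 3, in which Krt14 was lowest. Acta2 was at 9.99, 8.10 and 9.56, lowest in replicate 2, in which Krt5 and Krt14 were highest. Krt10, a keratin of differentiated epidermis, was at 5.84, 6.45 and 7.10, and Krt42 at 8.27, 8.05 and 8.00. Vim was at 10.07, 9.85 and 8.76. The desmosomal gene Dsg2 was at 8.56, 9.20 and 9.52 and Pkp1 at 7.41, 8.29 and 8.12. These are single values per array, with no test.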
